A study of Mus musculus with 20 samples.

Results

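The comparison described here was between livers of Cse-/- and Cse+/- mice that ate a tryptophan-free (no-Trp) diet, in which cysteine was still supplied. It used 6 of the 20 livers of the series: 3 Cse-/- livers (av14, av15 and av16) and 3 Cse+/- livers (av17, av19 and av20), taken as every library whose mouse the study lists under these genotypes and this diet. Poly(A) RNA from homogenised liver was sequenced, and reads were counted per gene. Mice were male, at least 9 weeks old, of a mixed 129 and C57BL/6 background, and both groups were calorie restricted, first on the control diet for 3 days and then on the no-Trp diet for 2 days. The no-Trp diet is a defined amino acid diet from which tryptophan was left out, with the other amino acids raised in proportion. The deletion in Cse-/- mice was present in the whole body, and the control animals were not wild type: the sample labels call them WT, whereas the study's list of mice gives them as heterozygous. Each library is named by its mouse number, since the table of counts carries no replicate numbers. The labels call the samples biological replicates, and the P values measure the spread between mice of 1 group, estimated over all 6 groups of the series.

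Cse, whose gene symbol is Cth, encodes cystathionine gamma-lyase, the last enzyme of the transsulfuration pathway, which makes cysteine from methionine by way of homocysteine and cystathionine. Animals without it depend on cysteine from food, and cysteine is used for protein, glutathione, taurine and coenzyme A. Shortage of an amino acid leaves tRNAs uncharged, which activates the kinase GCN2 and, through the transcription factor ATF4, a set of genes called the integrated stress response (ISR). Oxidative stress acts through NRF2 on a different set, the oxidative stress response (OSR). Since both genotypes here lacked dietary tryptophan and both received cysteine, the comparison asks what loss of Cse changed in liver when cysteine itself was not removed from the diet.

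Libraries held 16088508 to 23246393 counts on genes in Cse-/- livers and 14790326 to 46024996 in Cse+/- livers, av19 being the deepest. The library av15 stood apart from av14 and av16 on the third component of a principal component analysis of all 20 libraries. It lay there at -29.75, where av14 and av16 lay at 9.71 and 5.50. The chi-square of its counts was 64.5 per gene against av14 but 36.5 against av16. It was 32.3 for av16 against av14, and 35.5 to 49.9 for pairs of Cse+/- livers. Of 10 hepatocyte genes, none passed the test in edgeR (2 were lower at an unadjusted p below 0.05, and DESeq2 called 1 lower), and their summed level was 87305 to 95266 CPM (counts scaled to the library size) in Cse-/- and 99187 to 108170 CPM in Cse+/- livers.

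Cth mRNA was reduced about 10-fold in Cse-/- livers. Its level was 13.9, 14.4 and 10.4 CPM in the 3 Cse-/- livers and 160, 155 and 88.4 CPM in the 3 Cse+/- livers. The groups did not overlap, and the log2 fold change was -3.38 ± 0.36 (SE, edgeR adjusted p = 4.75e-05). A similar residual level was seen in every Cse-/- liver of the series, with group means of 9.71 CPM on the no-Trp diet with the glutathione synthesis inhibitor BSO and 8.38 CPM on the no-Cys diet. Cth lies on chromosome 3 of GRCm38, at chr3:157894248-157925077 on the minus strand. Gm43314, a transcript model of uncertain status annotated inside the Cth gene on the same strand, had 0.359 CPM in Cse-/- and 2.45 CPM in Cse+/- livers on average. No 50-base window of its transcript is shared with Cth transcripts, and whether its reads came from unspliced Cth RNA was not tested.

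**Figure D1:**
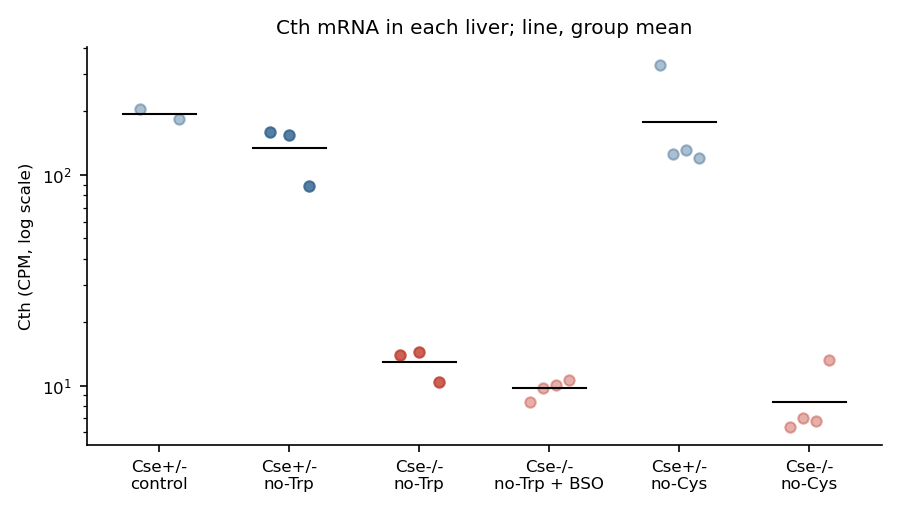
Cth mRNA (CPM, log scale) in every liver of the 6 groups, with 1 point per mouse and a line at the group mean. The 3 Cse-/- livers on the no-Trp diet lie between 10.4 and 14.4 CPM, below all Cse+/- livers on any diet.

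Of 14759 genes tested, 206 were called higher in Cse-/- livers and 183 lower at an edgeR adjusted p below 0.05, which is 1.4% and 1.24% of the genes tested and 2.64% in either direction. At an unadjusted p below 0.05 the counts were 1509 and 1204. A change of at least 2-fold was found for 73 of the higher and 98 of the lower genes. These counts depended on single mice: without av15 they were 50 higher and 59 lower, without av19 they were 56 and 64, and without av20 they were 61 and 112, and without av16 109 genes were called lower. Of the 389 genes, 62 kept their call with each of the 6 libraries left out in turn. Groups did not overlap for 379 of the called genes, and over all genes tested the Cse-/- livers lay above all Cse+/- livers for 10.1% and below them for 9.51%.

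**Figure D2:**
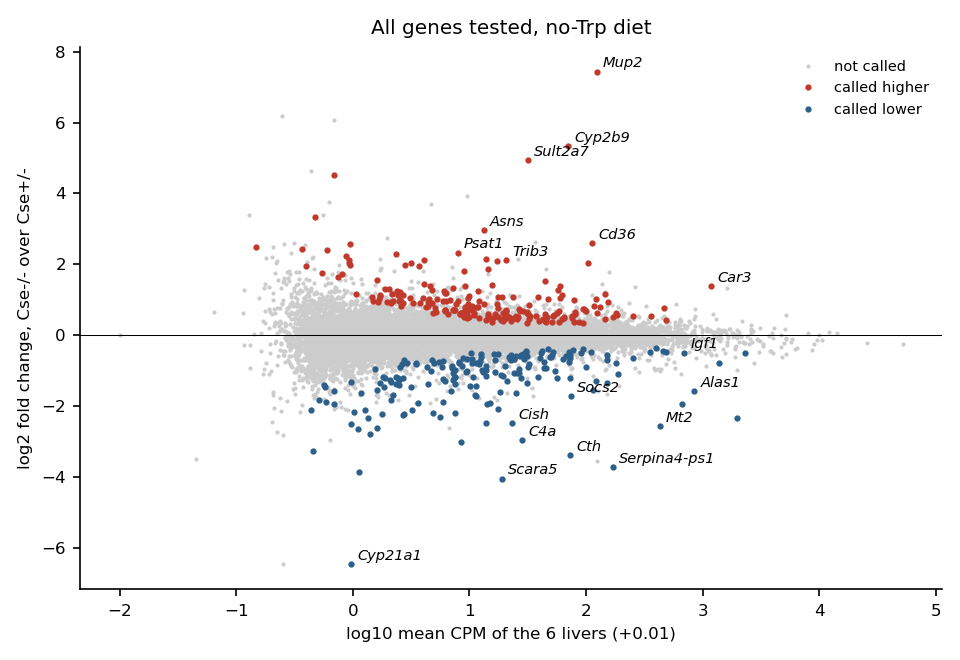
The log2 fold change of Cse-/- over Cse+/- livers on the no-Trp diet against the mean level of the 6 livers, for all 14759 genes tested, 1 point per gene. The 206 genes called higher (red) and 183 called lower (blue) are spread over the whole range of levels, with Cth at -3.38.

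Cd36 and Aqp4 were among the genes that rose most. Cd36, which encodes a fatty acid translocase, was at 149, 276 and 156 CPM in Cse-/- and 26.2, 33.6 and 35.03 CPM in Cse+/- livers. Every Cse-/- liver was above every Cse+/- liver, and the log2 fold change was 2.61 ± 0.20 (adjusted p = 8.73e-07). Aqp4, a water channel, was at 20.5, 31.4 and 15.8 CPM compared with 5.83, 5.19 and 4.16 CPM, a log2 fold change of 2.16 ± 0.22 (adjusted p = 3.02e-05). Both calls held with each library left out, the adjusted p of Cd36 staying between 2.47e-07 and 2.95e-05.

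The ISR was represented by few genes. The list of 14 ISR genes was taken from the study, 13 that it names in this role and Chac1, which it names beside glutathione. The study chose its genes in part on these livers, so that their direction here is not independent evidence. Of these 14, Asns, Psat1 and Trib3 rose (3 called higher, none lower, with 1.4% of all genes called higher) and the median log2 fold change was 0.70, compared with 0.00 over all genes tested. Asns encodes asparagine synthetase and was at 20.2, 25.1 and 25.1 CPM in Cse-/- and 2.91, 2.67 and 3.55 CPM in Cse+/- livers. The Cse-/- livers were tightly grouped and well above the others, with a log2 fold change of 2.96 ± 0.58 (adjusted p = 0.0107), although the call was lost without av19 (adjusted p = 0.0594). Psat1 encodes phosphoserine aminotransferase of serine synthesis and was at 8.24, 23.3 and 8.37 CPM compared with 2.35, 2.63 and 2.76 CPM. Its log2 fold change was 2.33 ± 0.38 (adjusted p = 0.00345), with av15 the highest, and it was 1.67 without that library (adjusted p = 0.0199). Trib3, a pseudokinase induced by ATF4 that restrains its activity, was at 39.7, 33.1 and 27.1 CPM compared with 6.97, 7.34 and 8.59 CPM. Its log2 fold change of 2.12 ± 0.24 was called with every library left out (main adjusted p = 9.49e-05).

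The remaining 11 ISR genes did not pass the test. Fgf21, a hormone made by liver during amino acid shortage, was at 8.16, 4.05 and 6.59 CPM in Cse-/- and 1.14, 1.56 and 2.62 CPM in Cse+/- livers. The groups did not overlap, but with a log2 fold change of 1.82 ± 0.75 the adjusted p was 0.198. Gdf15, another stress hormone, was at 10.4, 1.99 and 3.56 CPM compared with 2.13, 3.15 and 5.28 CPM, and the groups overlapped. Chac1, which degrades glutathione, had the lowest value of the list, with 6.30, 5.11 and 3.48 CPM in Cse-/- and 14.2, 13.03 and 10.7 CPM in Cse+/- livers and an adjusted p of 0.156. Chac1 was called lower in a fit of the 6 livers alone (adjusted p = 0.0484), in which Psat1 missed the threshold (0.0501), and without a filter on low counts (0.0297), where 4 ISR genes were called higher. Mthfd2, Pycr1, Slc7a1, Slc1a4, Slc3a2, Atf5, Atf6 and Ddit3 had log2 fold changes from -0.33 (Slc3a2) to 1.19 (Slc7a1), with adjusted p from 0.206 to 0.989. Of 23 other ATF4 target genes tested, none passed in edgeR and 2 were called higher by DESeq2, while 3 reached an unadjusted p below 0.05 upward and 1 downward. Their median was -0.14, which ranged from -0.26 without av16 to 0.02 without av15. Of 20 cytosolic aminoacyl-tRNA synthetases, which charge tRNAs and are ATF4 targets in part, 1 was called higher, with 1.4% of all genes called higher. DESeq2 called 2 higher, as did edgeR without av14. At an unadjusted p below 0.05, 7 of the 20 were higher and 1 lower, compared with 1509 and 1204 of all 14759 genes. The 1 called was Gars, at 47.4, 55.5 and 59.9 CPM compared with 43.5, 37.2 and 33.4 CPM (log2 fold change 0.52 ± 0.13, adjusted p = 0.037). That call was lost without av15, av16, av19 or av20, with adjusted p from 0.115 to 0.156.

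To set the sequence beside these values, the 250 bases before the annotated start of Asns, Gars and Trib3 are given 5′ to 3′, from RefSeq on GRCm38.p6, because these genes rose and are ATF4 targets. Capitals mark TGATGNAA, the core of the amino acid response element, or its reverse complement. They lie at chr6:7693210-7693459 on the minus strand (Asns), chr6:55037751-55038000 on the plus strand (Gars) and chr2:152344061-152344310 on the minus strand (Trib3).
Asns: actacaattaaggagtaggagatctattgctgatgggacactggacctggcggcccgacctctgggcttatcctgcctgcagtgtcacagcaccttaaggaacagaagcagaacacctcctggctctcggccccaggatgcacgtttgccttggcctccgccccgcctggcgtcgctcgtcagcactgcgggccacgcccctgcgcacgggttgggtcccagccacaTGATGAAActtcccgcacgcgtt
Gars: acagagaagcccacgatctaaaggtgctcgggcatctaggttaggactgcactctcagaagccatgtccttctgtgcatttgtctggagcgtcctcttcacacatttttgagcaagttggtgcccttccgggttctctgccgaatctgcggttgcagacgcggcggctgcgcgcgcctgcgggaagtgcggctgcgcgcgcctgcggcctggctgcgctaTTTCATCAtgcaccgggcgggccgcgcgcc
Trib3: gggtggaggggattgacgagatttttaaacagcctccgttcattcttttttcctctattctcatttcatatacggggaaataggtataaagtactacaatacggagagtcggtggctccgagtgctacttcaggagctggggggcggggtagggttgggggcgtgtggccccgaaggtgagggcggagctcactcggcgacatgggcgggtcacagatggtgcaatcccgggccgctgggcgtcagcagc
The Asns promoter holds the core once in the given direction, as TGATGAAA from 23 to 16 bases before the start, and the Gars promoter once as the reverse complement, TTTCATCA, from 30 to 23 bases before the start. No match to these letters lies in the window of Trib3, nor in either window of Psat1. The core was found in 2.44% of 205 promoters of genes called higher, in 3.37% of 178 promoters of genes called lower and in 3.45% of all 32851 promoters. The core of the antioxidant response element, TGACNNNGC on either strand, was found in 10.2% of promoters of genes called higher, 11.2% of those called lower and 10.2% of all promoters.

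Neither the OSR nor glutathione genes passed the test. None of the 8 OSR genes of the study, which were chosen in part on these livers, was called in either direction by edgeR, with 2 higher at an unadjusted p below 0.05 and 1 called higher by DESeq2, and their median log2 fold change was 0.30. Gsta2, a glutathione S-transferase, came closest, at 28.7, 12.6 and 20.8 CPM in Cse-/- and 6.97, 9.79 and 10.5 CPM in Cse+/- livers, with a log2 fold change of 1.18 ± 0.35 (adjusted p = 0.0754). Its groups did not overlap, but 64.2% of its transcript is shared in 50-base windows with other genes. Gsta1, which shares 89.7% of its transcript with other genes, had the largest value of the list, 1.74 ± 0.59 (adjusted p = 0.125), at no more than 1.62 CPM in any of the 6 livers. Nqo1, the quinone reductase used as a marker of NRF2, was at 5.74, 6.30 and 8.37 CPM compared with 4.62, 4.53 and 4.81 CPM (log2 fold change 0.55 ± 0.29, adjusted p = 0.311). Srxn1 and Gstm1 to Gstm4 had log2 fold changes between -0.17 and 0.40. Among 26 other NRF2 target genes none was called by edgeR and 1 in each direction by DESeq2, while an unadjusted p below 0.05 was reached by 5 upward and 2 downward. Their median was 0.09, and 0.03 without av19 to 0.18 without av20. Nor was any of the 14 tested genes of glutathione synthesis and turnover called by edgeR or DESeq2, apart from Chac1 in those other fits (1 in each direction at an unadjusted p below 0.05, median 0.03, and -0.02 without av15 to 0.06 without av19), in which Gclc and Gclm, the subunits of the rate-limiting ligase, had 0.27 ± 0.20 and 0.14 ± 0.12.

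Around the missing enzyme, the sulfur pathways showed few calls. Of 14 genes of transsulfuration and the methionine cycle only Cth was called by edgeR, while DESeq2 called 1 other gene higher, 2 were called higher without a filter on low counts, and 4 were higher and none but Cth lower by an unadjusted p below 0.05. Cbs, the enzyme just before it, had a log2 fold change of -0.22 ± 0.11 (adjusted p = 0.304). Bhmt, which remethylates homocysteine with betaine, was at 1879.6, 3704 and 1387 CPM in Cse-/- and 1259.5, 1079 and 418 CPM in Cse+/- livers, with no overlap but wide spread, and did not pass (1.34 ± 0.48, adjusted p = 0.138). Of 12 genes of cysteine breakdown, taurine and sulfide metabolism, edgeR called 1 higher and none lower, with 1.4% of all genes called higher. Before adjustment, 3 of the 12 reached an edgeR p below 0.05 upward and 1 downward, compared with 1509 and 1204 of all 14759 genes. The groups did not overlap for 3 upward and 1 downward, where the shares of all genes were 10.1% and 9.51%. The gene called was Ethe1, the mitochondrial persulfide dioxygenase. It was at 35.1, 44.8 and 34.7 CPM compared with 23.5, 24.5 and 26.3 CPM (log2 fold change 0.62 ± 0.14, adjusted p = 0.0235), and the call was lost without av15, av17 or av19 (adjusted p = 0.135, 0.0556 and 0.0722). Csad, which makes the taurine precursor hypotaurine, was at 58.3, 34.8 and 95.9 CPM compared with 100.1, 187 and 281 CPM, without passing (-1.59 ± 0.48, adjusted p = 0.0801). It was called lower without av17 (0.0489) and without a filter on low counts (0.00345).

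Among cholesterol synthesis genes, 4 of 20 rose in Cse-/- livers and none fell. All but 1 of the 20 enzymes had positive log2 fold changes, with a median of 0.62 compared with 0.00 over all genes, and 1.4% of all genes were called higher. The 4 were Mvk (mevalonate kinase), Lss (lanosterol synthase), Hsd17b7 and Dhcr7 (the last step to cholesterol). Dhcr7 was at 43.2, 40.1 and 42.4 CPM in Cse-/- and 21.96, 24.3 and 22.7 CPM in Cse+/- livers (log2 fold change 0.86 ± 0.21, adjusted p = 0.0325). Lss was at 32.9, 32.8 and 40.2 CPM compared with 23.5, 21.1 and 22.2 CPM (0.67 ± 0.13, adjusted p = 0.0095). Mvk and Hsd17b7 had log2 fold changes of 0.80 ± 0.17 and 0.60 ± 0.15 and their groups did not overlap either. The largest value, for Idi1, was 1.26 ± 0.46 (adjusted p = 0.149). With av15, av19 or av20 left out, 1 of the 20 enzymes was called in each case, and with av16 or av17 left out 2 were called. A fit of the 6 livers alone called 2, and edgeR without a filter on low counts 8. The median lay between 0.41 (without av16) and 0.72 (without av15). Dhcr7 lost its call with each library left out (adjusted p from 0.0577 to 0.0963), Hsd17b7 with each except av14 (0.0837 to 0.192), Mvk without av15 or av20 (0.0903 and 0.081) and Lss without av19 (0.0533).

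Among other sterol genes, Insig1, which holds the sterol sensor in the endoplasmic reticulum, did not pass, with a log2 fold change of 0.84 ± 0.27 (adjusted p = 0.102). Npc1, which exports cholesterol from lysosomes and was named after its values were seen, was at 125, 174 and 158 CPM in Cse-/- and 94.95, 100.4 and 98.6 CPM in Cse+/- livers (0.64 ± 0.11, adjusted p = 0.00649), and was called with every library left out. None of 12 genes of fatty acid synthesis, elongation and desaturation, 23 of fatty acid oxidation or 12 of coenzyme A metabolism was called by edgeR, with medians of 0.27, 0.15 and 0.26. At an unadjusted p below 0.05, 1, 3 and 6 of them were higher, and DESeq2 called 1, 1 and 2 higher. The median of fatty acid synthesis genes was 0.15 without av16 and 0.17 without av17, that of fatty acid oxidation genes ranged from -0.10 without av15 to 0.27 without av14, and without av14 edgeR called 1 gene of each list.

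Several genes that respond to growth hormone fell. Growth hormone acts on hepatocytes through JAK2 and STAT5, which induce Igf1 and the feedback inhibitors Cish and Socs2. A list of 13 genes of this pathway, put together after the called genes were seen, held 4 called lower and none higher, compared with 1.24% of all genes called lower, and had a median of -0.19. DESeq2 called 5 lower and a fit of the 6 livers alone 3. Its highest member, the transcriptional repressor Bcl6, was at 106, 28.9 and 80.3 CPM in Cse-/- and 24.4, 19.96 and 14.8 CPM in Cse+/- livers, with no overlap, and did not pass (1.87 ± 0.59, adjusted p = 0.0895). Among the 4, Cish was at 3.37, 11.3 and 6.55 CPM in Cse-/- and 52.5, 36.7 and 27.7 CPM in Cse+/- livers. The log2 fold change was -2.48 ± 0.37 (adjusted p = 0.00155), and the call held with every library left out. Socs2 was at 40.4, 23.0 and 39.2 CPM compared with 128, 103 and 110 CPM (-1.73 ± 0.42, adjusted p = 0.0344). Igf1, the main endocrine product, was at 655, 563 and 527 CPM compared with 787, 815 and 854 CPM, a smaller difference of -0.49 ± 0.12 (adjusted p = 0.0295). Onecut1, a hepatocyte transcription factor, had -1.91 ± 0.51 with an adjusted p just under the threshold (0.049997), and 54.4% of its transcript is shared with another gene model. The calls of Socs2 and Onecut1 were lost with any library left out (adjusted p from 0.0505 to 0.151 and from 0.0581 to 0.151), and that of Igf1 without av15, av16, av19 or av20 (0.0685 to 0.106). The receptor Ghr and the kinase Jak2 did not pass, with -0.09 ± 0.16 and 0.00 ± 0.14.

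Genes with a known sex bias in liver moved in single cases. All mice were male. Of 9 tested female-biased genes out of 15, 2 rose, with 1.4% of all genes called higher. Cyp2b9, a cytochrome P450 usually found in females, was at 78.1, 306 and 29.3 CPM in Cse-/- and 2.42, 0.272 and 8.13 CPM in Cse+/- livers. The groups were far apart but the spread within each was wide (5.34 ± 1.28, adjusted p = 0.0329), and the call was lost without av15, av17 or av19 (adjusted p = 0.137, 0.0742 and 0.111). Sult2a7, a sulfotransferase, was at 70.8, 91.1 and 22.5 CPM compared with 2.35, 2.38 and 1.17 CPM (4.94 ± 0.60, adjusted p = 0.000155) and held with every library left out. The other female-biased genes tested did not pass, and the median of the list was -0.19, which ranged from -0.34 without av15 to 0.71 without av20 and was also above 0 without av14 or av16. Of 15 male-biased genes, Serpina4-ps1 and Igf1 fell, with 1.24% of all genes called lower, and 12 had negative values. The median was -0.49, and -0.74 without av14 to -0.22 without av15. No male-biased gene was called without av15 or av16, nor in a fit of the 6 livers alone. Serpina4-ps1, a pseudogene of the serpin cluster, was at 50.2, 2.93 and 17.3 CPM compared with 374, 266 and 307 CPM (-3.73 ± 0.79, adjusted p = 0.0169), and the call was lost without av15 or av16 (adjusted p = 0.0582 and 0.0638). Mup2, a major urinary protein gene, had the largest positive fitted value of the called genes, 7.44 ± 1.92 (adjusted p = 0.0445), from 463, 1.25 and 275 CPM in Cse-/- and 2.13, 1.16 and 1.26 CPM in Cse+/- livers. It rested on av14 and av16, since av15 lay among the Cse+/- livers. Its call was lost with each library left out except av15 (adjusted p from 0.0666 to 0.149), and its whole transcript is shared in 50-base windows with other Mup genes.

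**Figure D3:**
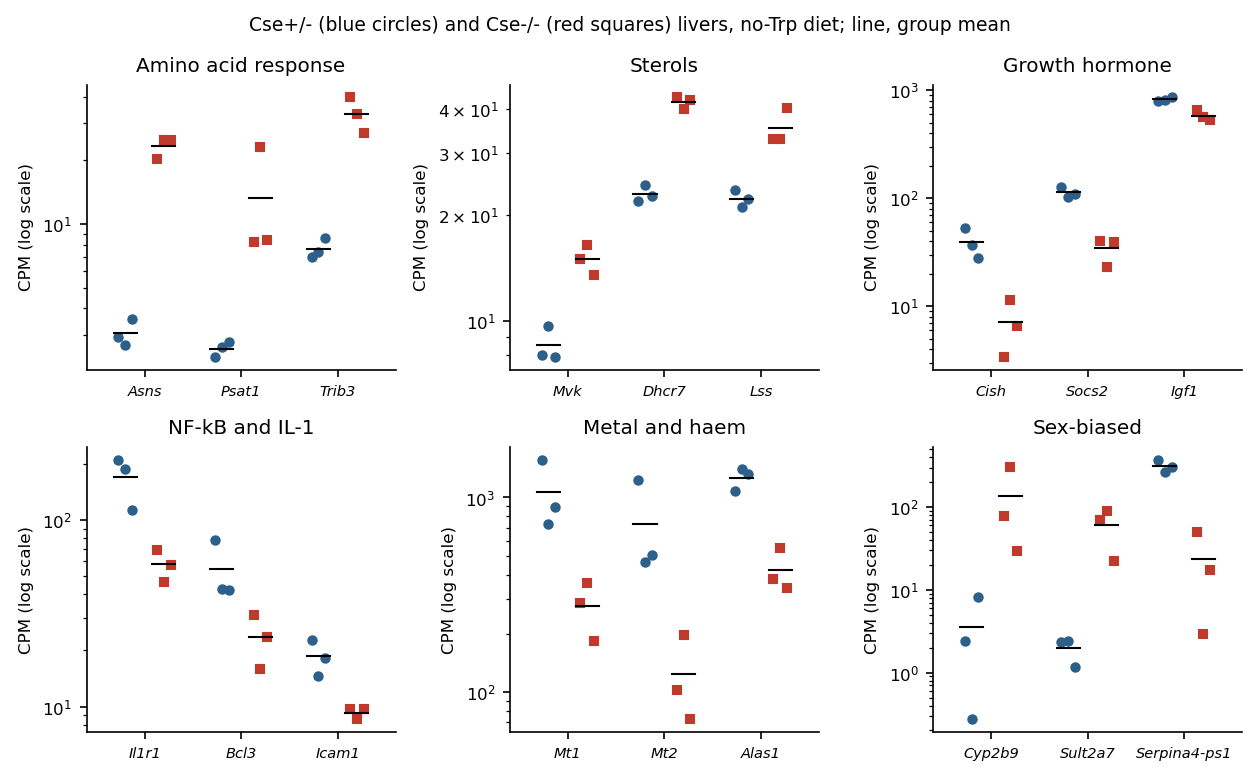
Levels (CPM, log scale) of 18 genes in each of the 3 Cse+/- (blue circles) and 3 Cse-/- (red squares) livers on the no-Trp diet, in 6 groups of genes, with lines at group means. Each gene shown separates the groups, from Igf1 at 787 to 854 CPM against 527 to 655 CPM to Cyp2b9, whose livers spread from 0.272 to 306 CPM.

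Several genes of inflammatory signalling fell in Cse-/- livers. In a list of 22 genes of NF-kB and interleukin-1 signalling, put together after the called genes were seen, 6 were called lower and none higher, against 1.24% of all genes called lower. The 6 were Il1r1, Relb, Bcl3, Icam1, Tnip2 and Myd88. Il1r1, the receptor for interleukin-1, was at 69.4, 46.8 and 57.6 CPM in Cse-/- and 210.3, 188 and 113 CPM in Cse+/- livers (-1.56 ± 0.34, adjusted p = 0.0188). Icam1, an adhesion molecule induced by NF-kB, was at 9.67, 8.54 and 9.70 CPM compared with 22.9, 14.6 and 18.2 CPM (-0.98 ± 0.19, adjusted p = 0.0106). Bcl3, a nuclear cofactor of NF-kB, had -1.20 ± 0.25 and the adaptor Myd88 -0.61 ± 0.16. The groups did not overlap for any of the 6, but of the 22 genes 5 were called without av14 or av20, 4 without av16, 3 without av17, 2 without av19 and 1 without av15. In a fit of the 6 livers alone 1 of the 22 was called, and in thinned libraries 3. Each of the 6 lost its call without at least 1 library, Icam1 without av15 alone (adjusted p = 0.0511) and Il1r1 without av15, av16 or av19 (0.0967, 0.0534 and 0.0605), and the highest adjusted p of the others was 0.0863 for Bcl3 (without av15), 0.135 for Relb (without av20), 0.129 for Tnip2 (without av15) and 0.131 for Myd88 (without av16). The median over the 22 genes was -0.27 (-0.18 without av14), and Nfkb1, Rela and Il1b themselves did not pass with all libraries, Rela being called lower without av16 (adjusted p = 0.0497).

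Of 22 acute phase genes, 20 had negative log2 fold changes, of which Mt1 and Mt2 were called lower and none was called higher, with 1.24% of all genes called lower. Without a filter on low counts 8 were called lower, and without av14 and without av20 1 and 2 were, other genes than Mt1 and Mt2 among them. The median was -0.64, and -0.82 without av20 to -0.39 without av17. These 2 encode metallothioneins, small cysteine-rich proteins that bind zinc and copper. Mt1 was at 287, 364 and 183 CPM in Cse-/- and 1562, 730.2 and 896 CPM in Cse+/- livers (-1.94 ± 0.49, adjusted p = 0.0391). Mt2 was at 103, 197 and 72.5 CPM compared with 1225, 465 and 506 CPM (-2.56 ± 0.62, adjusted p = 0.0343). For both genes every Cse+/- liver was above every Cse-/- liver, and av17 was the highest of all. The call of Mt1 was lost with each library left out (adjusted p from 0.0552 to 0.115) and that of Mt2 with each except av20 (0.0524 to 0.103). Saa1, the serum amyloid gene, was at 82.2, 40.8 and 49.5 CPM compared with 1429, 465 and 61.1 CPM, the groups overlapping, and did not pass (adjusted p = 0.132). Of 20 interferon and MHC genes, Psmb8, an immunoproteasome subunit, fell (-0.87 ± 0.20, adjusted p = 0.0235) and lost its call without av15, av17 or av20 (adjusted p = 0.11, 0.0513 and 0.0658), and the median was -0.34 (-0.15 without av20). DESeq2 called 4 of the 20 lower, edgeR called 2 without av14, and none was called in a fit of the 6 livers alone or in thinned libraries.

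Alas1, the rate-limiting enzyme of haem synthesis in liver, fell about 3-fold. It was at 383, 552 and 344 CPM in Cse-/- and 1078, 1400.1 and 1316 CPM in Cse+/- livers, so that the groups were well apart, with a log2 fold change of -1.57 ± 0.20 (adjusted p = 0.000204) that was called with every library left out. The 7 other haem synthesis genes of a list made after the values were seen did not pass with all libraries and lay between -0.19 (Urod) and 0.37 (Uros), and Uros was called higher without av17 (adjusted p = 0.0308).

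Few circadian, insulin-related and adipose-type genes were called. Dbp and Bhlhe41 rose among 17 clock genes tested (2 called higher, none lower, median 0.23), with 1.4% of all genes called higher. DESeq2, and edgeR without a filter on low counts, each called 4 clock genes higher and 1 lower. At an unadjusted p below 0.05, 8 of the 17 were higher and 2 lower, compared with 1509 and 1204 of all 14759 genes. All Cse-/- livers lay above all Cse+/- livers for 8 of the 17 and below them for 1. Over all genes tested these shares were 10.1% and 9.51%. Dbp, an output gene of the clock, was at 127, 104 and 122 CPM in Cse-/- and 66.6, 67.2 and 79.0 CPM in Cse+/- livers (0.73 ± 0.14, adjusted p = 0.0101) and lost its call without av19 (adjusted p = 0.0529). Bhlhe41 had 1.20 ± 0.32 (adjusted p = 0.0488). Irs1, an adaptor of the insulin receptor, and Depp1, a FOXO target, were the 2 called of 17 genes in a list made after the values were seen (1.4% of all genes were called higher), with 1.23 ± 0.31 and 1.39 ± 0.34. Depp1 was at 99.7, 67.1 and 91.1 CPM compared with 38.2, 27.5 and 33.1 CPM. Car3, a carbonic anhydrase abundant in both adipose tissue and male liver, was at 2021, 1599 and 1496 CPM compared with 647, 686 and 631 CPM (1.38 ± 0.34, adjusted p = 0.0366). It was the only one of 7 adipose markers called by edgeR with all libraries. Plin4, another of them, had the lowest value (-1.84 ± 0.50, adjusted p = 0.0541) and was called lower by DESeq2 (0.0353), without a filter on low counts (0.000978) and without av17 (0.00383). Car3 lost its call with each library left out (adjusted p from 0.0551 to 0.118) and Depp1 with each except av17 (0.0546 to 0.12). Irs1 lost it without av15, av16, av17 or av20 (0.0856 to 0.135) and Bhlhe41 without av14, av16, av19 or av20 (0.0602 to 0.181). No gene of bile acid synthesis (15), of gluconeogenesis and amino acid catabolism (24) or of tryptophan breakdown and NAD synthesis (17 tested) was called by edgeR with all libraries or by DESeq2. Without av17 edgeR called 1 bile acid gene higher, and without a filter on low counts 1 of these and 1 of gluconeogenesis and amino acid catabolism. The medians were 0.00, 0.01 and 0.12 and lay between -0.06 and 0.24 with a library left out. At an unadjusted p below 0.05, 1 gene of each list was higher, and 1 of each of the first 2 lists lower.

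**Figure D4:**
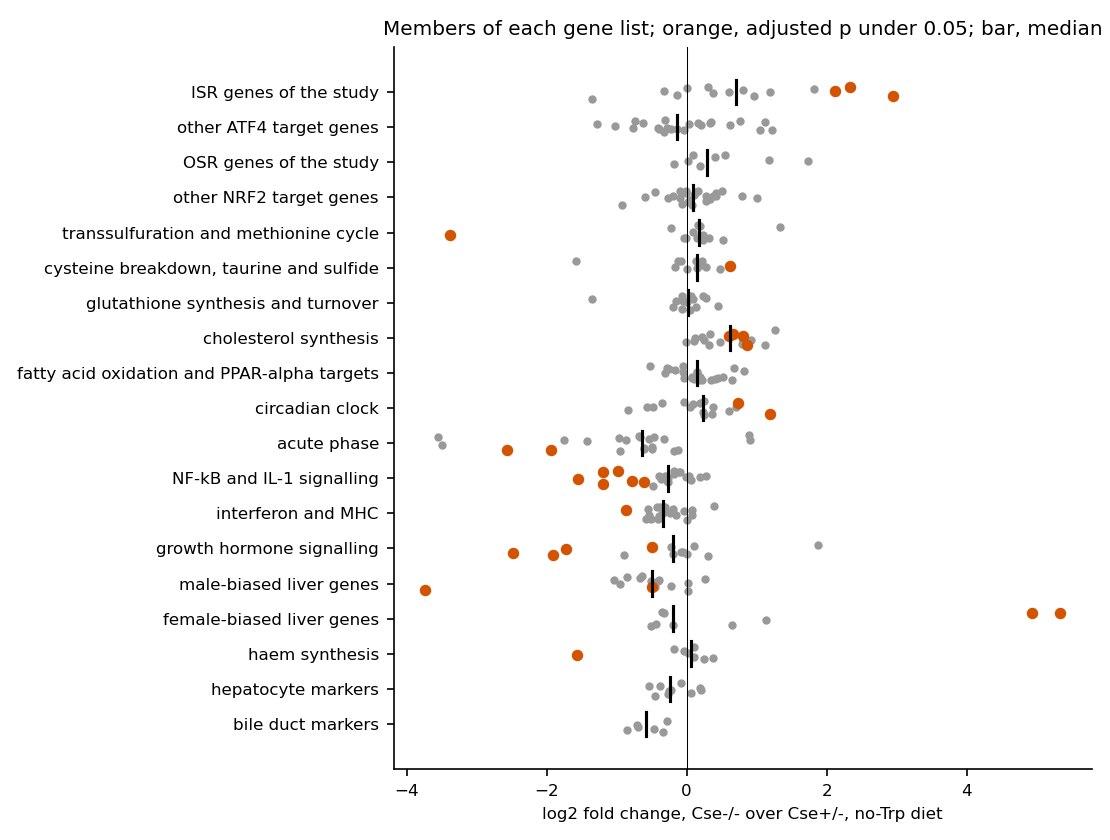
The log2 fold change of Cse-/- over Cse+/- livers on the no-Trp diet for the tested genes of 19 lists, 1 point per gene, with a bar at the median and called genes in orange. Cholesterol synthesis genes lie to the right of 0 except Ebp, acute phase genes lie mostly to the left (20 of 22), and the OSR and glutathione lists hold no called gene.

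The genes with the largest decreases apart from Cth were of mixed function. Cyp21a1, the steroid 21-hydroxylase gene, had 1 read in all 3 Cse-/- livers together and 34, 134 and 6 reads in the Cse+/- livers, a ratio of 138 in CPM (95% counting interval 24.5 to 5499, exact conditional binomial, which covers counting error alone). Of its transcript, 23.7% is shared in 50-base windows with Cyp21a2-ps. The Cse+/- livers themselves were at 2.42, 3.04 and 0.28 CPM, and with a library left out the fitted log2 fold change ran from -6.97 (without av20) to -5.84 (without av19), apart from -8.30 without av14, which held the 1 read and leaves a value set by the prior count. Scara5, a ferritin receptor, was at 2.37, 0.935 and 2.94 CPM in Cse-/- and 55.7, 36.4 and 15.6 CPM in Cse+/- livers (-4.05 ± 0.67, adjusted p = 0.00345). Serpine2, an inhibitor of serine proteases, was at 2.59, 1.37 and 1.53 CPM compared with 22.03, 18.01 and 4.90 CPM (-3.00 ± 0.51, adjusted p = 0.00443). In all 3 genes av20 was the lowest Cse+/- liver but still above every Cse-/- liver. E2f7, Tff3, Gm7599 and Whrn fell from 1 to 3 CPM on average to below 0.5 CPM, with log2 fold changes of -3.85, -2.64, -2.61 and -2.51. E2f7 lost its call without av16 (adjusted p = 0.0596) and Tff3 without av14, av15, av16, av19 or av20 (0.0577 to 0.103). Among the genes with the largest increases, Hrk, Olig1, Esm1, Slc35f2, Rian and Mrgprb11-ps had log2 fold changes from 2.12 to 4.53, at no more than 11.2 CPM in any of the 6 livers. Each of these 6 lost its call without av19 (adjusted p from 0.0529 to 0.167). Olig1 also lost it without av14, av15, av16 or av17, Rian without av14 or av20, Slc35f2 without av15 or av20, Esm1 and Mrgprb11-ps without av15, and Hrk without av20 (adjusted p from 0.0519 to 0.14).

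Position was examined around Cth, where the strain of the sequence linked to the deleted allele and the genotype cannot be told apart. Within 10 Mb on either side, 34 genes were tested and 4 were called (11.8%, compared with 2.64% of all genes): Cth, Gm43314, 1810013D15Rik and Lrriq3. Without Cth itself and Gm43314, which lies inside the Cth gene, 2 of 32 genes were called (6.25%). Beyond 20 Mb on chromosome 3, 2.28% of 701 genes were called. 1810013D15Rik, which starts next to the 5′ end of Cth on the opposite strand, was at 7.64, 8.48 and 10.4 CPM in Cse-/- and 3.06, 3.90 and 4.48 CPM in Cse+/- livers (1.20 ± 0.22, adjusted p = 0.00632), and it was also higher in Cse-/- livers on the no-Cys diet (0.99 ± 0.19, adjusted p = 0.000949). Lrriq3 had 0.98 ± 0.26 (adjusted p = 0.0469) and lost its call with each library left out except av14 (0.0602 to 0.244). A second group of called genes, noticed after the values were seen, lay on chromosome 17 between 33 and 38 Mb, the region of the mouse MHC: 10 of 145 genes tested (6.9%), 9 lower and 1 higher. They were Psmb8, Cyp21a2-ps, Cyp21a1, C4a, Stk19, Ddah2, H2-Q6, H2-Q7, Ddr1 and, as the 1 higher, Zfp763. C4a, a complement gene at chr17:34809092-34823464, was at 6.78, 4.92 and 7.54 CPM in Cse-/- and 71.9, 68.4 and 10.3 CPM in Cse+/- livers (-2.95 ± 0.47, adjusted p = 0.00304), and 35.2% of its transcript is shared with its neighbour C4b. Without av15, 2 genes of this window were called, without av16 and av20 6 each, without av19 5, and in a fit of the 6 livers alone 1. H2-Q7 lost its call without av15 (adjusted p = 0.0811), Cyp21a2-ps without av15 or av19 (0.0853 and 0.0881), and Stk19 without av15, av16 or av19 (0.069 to 0.108). Ddr1 lost it without av15, av16, av19 or av20 (0.0535 to 0.131), H2-Q6 without av15, av16, av17 or av20 (0.051 to 0.135), Zfp763 without av14, av15, av19 or av20 (0.0926 to 0.137) and Ddah2 with each library left out except av14 (0.0531 to 0.152). The strain of origin of this window in these mice of mixed background was not tested.

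The same genotype difference was measured in other mice on the no-Cys diet, 4 Cse-/- and 4 Cse+/- livers that share no library with the 6 described here. Of the 389 genes called on the no-Trp diet, 311 (79.9%) had the same sign there, compared with 61.8% of all genes tested, and 165 (42.4%) were called in the same direction, against 17.5% of all genes. On the no-Cys diet itself 23.8% of genes were called in either direction. Cd36 had 2.61 ± 0.20 on the no-Trp and 2.89 ± 0.18 on the no-Cys diet, Trib3 2.12 ± 0.24 and 1.63 ± 0.20, Sult2a7 4.94 ± 0.60 and 4.01 ± 0.57, and Igf1 -0.49 ± 0.12 and -0.48 ± 0.10. None of these 4 differed between the diets by the interaction of genotype and diet (adjusted p = 0.589, 0.406, 0.589 and 0.975).

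Other genes differed between the diets. By the interaction, 643 genes (4.36%) differed, 397 with a higher and 246 with a lower genotype difference on the no-Trp diet (264 and 160 without av17). All 20 cholesterol synthesis genes were among the 397, with a median log2 fold change of 0.62 on the no-Trp and -1.31 on the no-Cys diet. Dhcr7 had 0.86 ± 0.21 on the no-Trp diet and -0.93 ± 0.18 on the no-Cys diet (interaction adjusted p = 0.00153). Conversely, 6 of 14 ISR genes and 7 of 8 OSR genes were among the 246, in lists taken from the study, which chose its genes in part on these livers. Psat1 had 2.33 ± 0.38 and 5.83 ± 0.40 (interaction adjusted p = 0.00221), and Nqo1 0.55 ± 0.29 and 2.29 ± 0.25 (0.0133). For Asns, with 2.96 ± 0.58 and 4.46 ± 0.51, the difference between diets did not pass (adjusted p = 0.278). The metallothioneins went opposite ways, Mt2 by -2.56 ± 0.62 on the no-Trp and 1.66 ± 0.53 on the no-Cys diet (interaction adjusted p = 0.00633). Cish and Alas1, lower on the no-Trp diet, had 0.09 ± 0.34 and -0.09 ± 0.17 on the no-Cys diet (0.00618 and 0.00336). The genes were picked by the no-Trp comparison, and the interaction uses the same 6 livers.

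**Figure D5:**
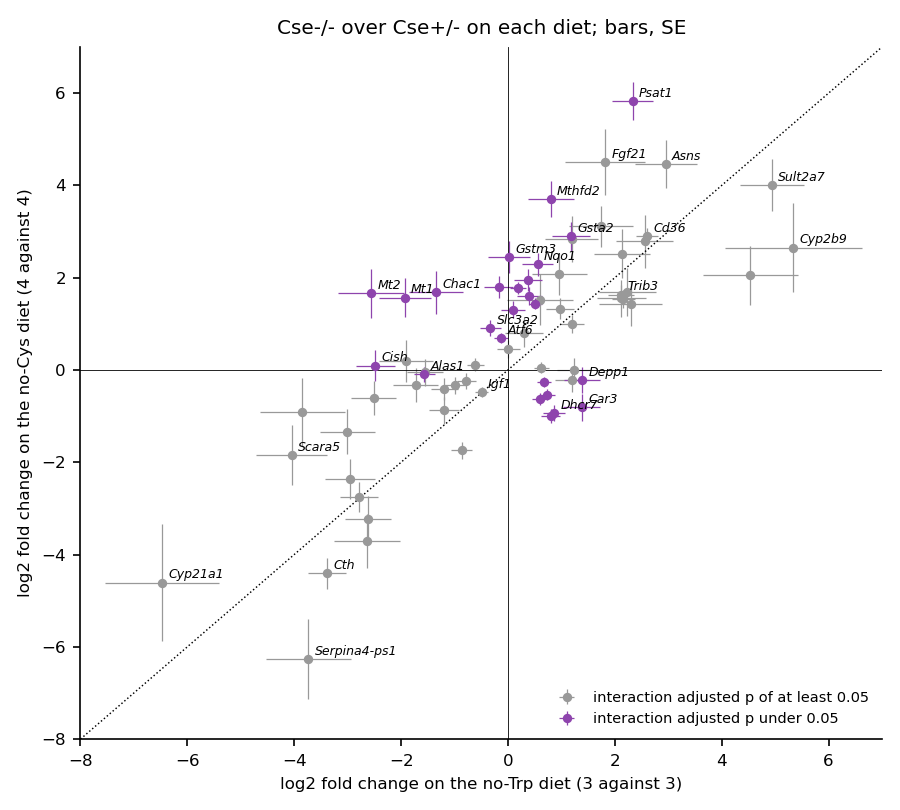
The log2 fold change of Cse-/- over Cse+/- livers on the no-Trp diet (3 against 3, horizontal) and on the no-Cys diet (4 against 4, vertical) for the genes named by the rule, with bars of 1 SE and the line of equality dotted. Genes in purple have an interaction adjusted p below 0.05, among them Psat1 (2.33 and 5.83), Mt2 (-2.56 and 1.66) and Dhcr7 (0.86 and -0.93).

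Markers of other cells were compared in the same way. In bulk tissue, fewer cells of a type and less RNA per cell cannot be told apart. None of 12 Kupffer and macrophage, 8 tested lymphocyte and neutrophil, 13 endothelial and stellate, 6 bile duct or 5 tested red blood cell markers was called by edgeR or DESeq2, and at an unadjusted p below 0.05 none was higher and 1, 2, 1, 4 and 1 were lower. Summed levels in Cse-/- and Cse+/- livers were 403 to 522 and 466 to 563 CPM for Kupffer and macrophage markers, 4.74 to 8.76 and 6.89 to 11.0 CPM for lymphocyte and neutrophil markers, and 28.1 to 46.8 and 48.7 to 63.2 CPM for bile duct markers. All 6 bile duct markers had negative log2 fold changes (median -0.58), and the red blood cell sum was 119 to 184 CPM compared with 211 to 258 CPM. These shifts went in the same direction as the lower NF-kB, acute phase and MHC genes, and their part in those results was not tested. Of 5 tested cell division markers none was called by edgeR or DESeq2, 3 were lower and 1 higher by an unadjusted p below 0.05, and the median was -0.87 (-0.37 without av20), with sums of 6.98 to 8.29 CPM in Cse-/- and 6.68 to 13.8 CPM in Cse+/- livers. Of 10 pancreas and 6 skeletal muscle genes 1 each passed the filter on low counts.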

How the data were processed

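Poly(A) RNA of mouse liver was sequenced by the authors, and the deposited table holds raw read counts per Ensembl gene for each mouse, not normalized and not pooled. The submitters' processing notes name HISAT2 2.1.0, HTSeq 0.11.0 and the build GRCm38, and the release of the gene annotation was not given in the sources used here. Columns carry mouse numbers and were assigned to groups through the study's list of mice. 1 of the 21 columns is not in that list and was not used.

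Of 46078 genes in the table, 45229 had a symbol in the annotation of GRCm38 and 849 had none. Genes were filtered with filterByExpr (minimum count 10, minimum total count 15), which left 14759. TMM factors and quasi-likelihood F tests of edgeR 4.0.16 (with limma 3.58.1 in R 4.3.3) were used on 20 libraries with 6 group means (common dispersion 0.027), so that all groups shared 1 estimate of the spread. Tests were two-sided, P values were adjusted by Benjamini-Hochberg over all genes tested, and genes were called at an adjusted p under 0.05. Levels are CPM on TMM-scaled library sizes, and errors of log2 fold changes are SE. Counting intervals cover counting error only. The study itself used the Wald test of DESeq2, which was run here as an alternative (version 1.42.0). Tables and plots were made with Python 3.11.15, numpy 2.4.6, pandas 2.3.3 and matplotlib 3.10.9.

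Genes were named by a rule: Cth, the 12 called genes that rose most and the 12 that fell most, among those with groups that did not overlap and a mean of at least 1 CPM in 1 group, the 14 ISR and 8 OSR genes taken from the study, called members of the gene lists, called genes within 10 Mb of Cth, and the highest and lowest members of a list. Others were chosen after their values were seen: Npc1, Mup2, the chromosome 17 genes and the genes that did not pass but are named for their role. The members and lists were chosen with earlier results of these data known, and the lists on growth hormone, haem, NF-kB and interleukin-1, and insulin and FOXO were made after the called genes were seen. No set test was run. Results of some genes that the rule names are not reported here.

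On simulated counts for the no-Trp comparison (14485 genes, 200 changed), the fit recovered 190, being 90% of the 2-fold and 100% of the 4-fold changes, with 7 false calls. Changes were set only in genes with a mean of at least 1 CPM. The simulated spread followed the trend with level, without a spread of each gene's own and without a library that stood apart. These shares therefore do not hold for genes of wider spread in the real livers. Alternatives were DESeq2, RLE size factors, all genes with a count, genes with a mean of at least 1 CPM, a fit of only the groups compared, libraries thinned to 11785740 counts, an adjusted p under 0.01, and each of the 6 libraries left out. Promoters are from RefSeq on GRCm38.p6. Shared transcript was the share of 50-base windows of a gene's transcripts found in transcripts of other genes, from GENCODE vM21.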

Additional observations from a re-analysis of the deposited data

Results flagged for a closer look

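In groups of 4 livers, 1 Cth value lay far from the other 3 in each group on the no-Cys diet: 332 CPM in the Cse+/- liver av01 and 13.3 CPM in the Cse-/- liver av08. How often chance sets a value apart in such groups was not tested, and neither liver belongs to the no-Trp comparison.

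The genotype difference of 33 genes named in the text differed between the no-Trp and the no-Cys diet by the interaction of edgeR at an adjusted p below 0.05. Values here are the difference of the log2 fold changes, no-Trp minus no-Cys. Among ISR and tRNA synthetase genes they were -3.50 for Psat1, -2.91 for Mthfd2, -3.03 for Chac1, -1.57 for Atf5, -1.24 for Slc3a2, -0.83 for Atf6 and -0.92 for Gars. Among OSR genes they were -1.74 for Nqo1, -1.58 for Srxn1, -1.72 for Gsta2, -1.97 for Gstm1, -1.22 for Gstm2, -2.44 for Gstm3 and -1.20 for Gstm4. Sterol genes lay on the other side of 0, with 1.80 for Mvk, 1.80 for Dhcr7, 1.24 for Hsd17b7, 0.93 for Lss, 3.27 for Idi1, 0.66 for Ebp, 2.05 for Insig1 and 0.64 for Npc1. The metallothioneins had -4.22 (Mt2) and -3.50 (Mt1). The remaining genes had -2.57 (Cish), -1.48 (Alas1), 1.26 (Dbp), 1.61 (Depp1), 2.19 (Car3), 3.21 (Bcl6), 1.19 (Ghr), -0.78 (Stk19) and 7.88 (Mup2), the last from a wide spread within the Cse-/- livers.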

How the results depend on the processing

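The number of genes called in the no-Trp comparison depended on the test. Against 206 higher and 183 lower genes, DESeq2 called 424 and 299, a fit of only the 6 livers 41 and 42, and an adjusted p under 0.01 left 31 and 41. Without a filter on low counts 276 genes were lower. Leaving out each library in turn gave 50 to 238 higher and 59 to 183 lower genes. RLE factors, a mean of at least 1 CPM and thinned libraries gave counts within 1.5 times of these in both directions. Of the 389 genes, 382 were called by DESeq2, 72 in the fit of the 6 livers and 104 without av15, and 33 under every alternative. For the interaction, with 397 higher and 246 lower genes, the fit of only its 4 groups gave 230 and 145, DESeq2 gave 467 lower genes, and leaving out each no-Trp library gave 264 to 332 higher and 160 to 221 lower genes. The cause of these differences was not tested. Cth stayed called, at -3.61 to -3.24 with a library left out, and 3 or 4 genes within 10 Mb of it were called.

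8 genes turned direction, of which none was called in the main comparison. With each library left out in turn, Slc1a4 ranged from -0.026 (without av16) to 0.60, Gdf15 from -0.34 (without av14) to 0.98, Ddit3 from -0.087 (without av14; also below 0 without av16 and av17) to 0.13 and Gstm3 from -0.46 (without av16; also below 0 without av19) to 0.23. In the same way Ebp ranged from -0.10 to 0.036 (without av16; also above 0 without av15 and av17), Jak2 from -0.19 (without av16; also below 0 without av17) to 0.12, Nfkb1 from -0.042 (without av20; also below 0 without av19) to 0.16 and Il1b from -0.15 (without av16; also below 0 without av20) to 0.18. Ddit3 was at -0.0011 with a mean of at least 1 CPM and -0.036 in thinned libraries, and Gstm3 at -0.0011 by DESeq2 and -0.028 in thinned libraries. Jak2 was at -0.0097 with a mean of at least 1 CPM and -0.0037 in thinned libraries, where Nfkb1 was at -0.0039. Without a filter on low counts Fgf21, Chac1, Gsta2, Bhmt, Csad, Insig1, Idi1, Bcl6, Saa1 and Plin4 passed, with adjusted p from 0.000978 to 0.0494, and by DESeq2 Gsta1, Insig1 and Plin4 passed (0.0363, 0.039 and 0.0353), none of which was called in the main comparison. No paired analysis was possible because the columns carry mouse numbers and not the replicate numbers of the labels. How far depth limits genes of low counts was not tested, since the simulated counts were not split by level.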
